A study of Homo sapiens with 12 samples.

Results

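The extracellular matrix genes described here were the collagens, the laminins and a set of matrix glycoproteins and proteoglycans. They were taken from the table of 12616 genes by symbol, as every collagen chain gene, every gene of a laminin α, β or γ chain, and 20 symbols named singly, from agrin (AGRN) to versican (VCAN). The table listed 43 of them, which were 18 collagens, 9 laminins (1 of them the pseudogene LAMB2P1) and 16 of the 20 singly named genes. No measured value entered the rule, though earlier results of these data were known when it was set. Every gene of the table reached a normalised count of 1 in at least 3 libraries. A gene can thus be listed through the group in which it is high. Well-known members such as COL1A1, COL3A1, LAMA2 and POSTN were among 34 symbols not analysed here.

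MeWo and SkMel28 are human cutaneous melanoma cell lines, and an shRNA (short hairpin RNA) targeting MITF, a transcription factor of melanocyte identity and pigment genes, could be switched on in either with doxycycline (Dox). Each line was kept for 8 days with Dox at 0 or 1 µg/ml, with 3 libraries per line and dose, so that MeWo control, MeWo Dox, SkMel28 control and SkMel28 Dox each held 3. All 4 groups carried the hairpin, and no line without it was given Dox, so the effect of the hairpin and that of the drug cannot be told apart. Per the labels MeWo grew in EMEM and SkMel28 in RPMI, whereas the study's methods name RPMI for its human lines other than HBL. Where the labels are right, medium and line cannot be told apart. Whether each line was a single clone and whether the 3 libraries came from separate cultures is not stated, and p-values measure only the spread between these libraries.

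The matrix around cells is built from a few assembly systems. Collagen chains wind in threes into a triple helix, and the resulting molecules form fibrils, sit on fibril surfaces (the FACIT collagens), form beaded or anchoring filaments, or make the open network of basement membranes. Laminins are cross-shaped trimers of an α, a β and a γ chain that polymerise on the cell surface, where nidogen, perlecan and agrin tie them to collagen IV and to receptors. Melanocytes normally rest on such a basement membrane at the border of epidermis and dermis, and fibronectin, tenascin-C and SPARC are known products of motile, poorly differentiated melanoma cells.

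Values are normalised counts (reads scaled by the TMM-adjusted library size, as deposited), gene positions are on hg38 with GENCODE release 44, and 1 read equalled 0.278 to 0.389 at depths of 2568187 to 3714608 reads. Libraries were 3′ tags, and each test compares levels within a gene. The sums over genes given below are totals of normalised counts and were not tested. MITF (chr3:69739456-69968336), the target of the hairpin, went from 657, 663 and 708 to 451, 354 and 371 in MeWo and from 861, 739 and 792 to 575, 578 and 552 in SkMel28. It fell in both lines (log2 −0.79, SE 0.11, adjusted p 6.49e-05, and −0.49, SE 0.11, adjusted p 0.00705), and the SkMel28 call was lost without the mean-variance trend (adjusted p 0.05). All 7 melanocytic markers checked were listed, of which 6 fell and DCT rose in MeWo and 3 fell in SkMel28. In MeWo the falls of SOX10 and TYR came from Dox replicates 2 and 3. SOX10 gave 289, 296 and 293 in the controls and 312, 158 and 155 with Dox, and TYR 346, 398 and 375 and 389, 167 and 194. No fibroblast or endothelial marker was listed (0 of 8 and 0 of 6), and of 6 keratinocyte markers only KRT10 was, called in neither line. In these bulk libraries, more cells with a transcript and more transcript per cell cannot be told apart. MeWo Dox replicate 1 stood apart from the other MeWo Dox libraries, with a chi-square per degree of freedom of 18.9 and 16.5 against 1.57 to 5.76 for all other pairs within a group. Leaving it out raised the genes called in MeWo from 2107 to 3913, while 20 matrix genes were again called there, 18 of them shared with the full set. COL5A2 (adjusted p 0.0537) and THBS1 (adjusted p 0.104) were then not called.

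With Dox, 19 of the 43 matrix genes rose and 1 fell in MeWo, and 21 rose and 0 fell in SkMel28. A change was called at an adjusted p under 0.05 in limma, adjusted over all 12616 genes, of which 8.58% were called higher and 8.12% lower in MeWo, and 5.88% higher and 5.04% lower in SkMel28. The median log2 change of the 43 was 0.68 in MeWo and 0.65 in SkMel28, beside 0.00 and 0.00 over all genes. In each line 24 of the 43 had all 3 Dox libraries above all 3 controls, as had 14.1% of all genes in MeWo and 16.1% in SkMel28. Called higher in both lines were 12 of the 43 (COL5A3, COL9A3, COL15A1, COL18A1, HSPG2, LAMA4, LAMB1, LAMC1, MATN2, SPARC, THBS2 and TNC), beside 1.91% of all genes. Another 7 were called higher in MeWo alone, 9 higher in SkMel28 alone and 1 lower in MeWo alone, while 14 were called in neither line. Among the called members, COL11A2, COL22A1 and THBS1 reached the minimum for listing only through Dox libraries. Their place in the table is thus not independent of their rise. For the 24 members with a mean of at least 10 over all libraries, 13 rose and 1 fell in MeWo and 15 rose in SkMel28, and for the 19 with less, 6 rose in each line. Scaling to the spike-ins in place of TMM moved the median change of all genes by 0.26 in MeWo and −0.09 in SkMel28, and then 21 members rose and 1 fell in MeWo and 17 rose in SkMel28, while over all genes 2097 rose and 383 fell in MeWo (1082 and 1025 with TMM) and 394 rose and 533 fell in SkMel28 (742 and 636).

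**Figure D1:**
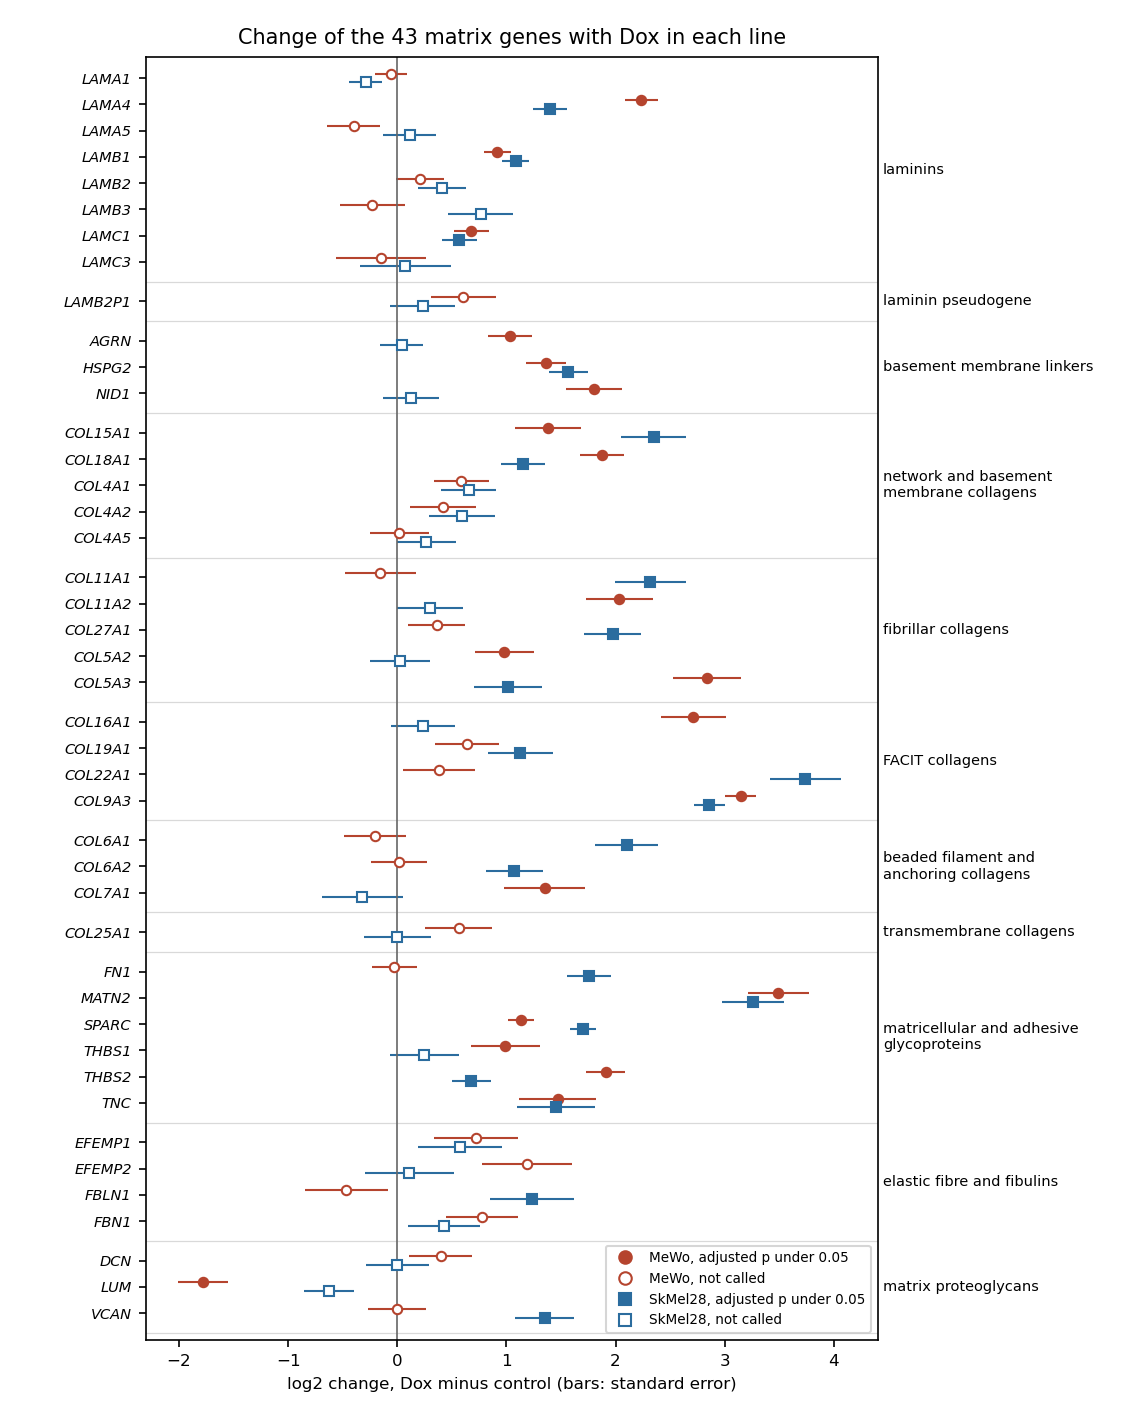
Log2 change with Dox (x axis) of each of the 43 matrix genes, grouped by role, as circles for MeWo and squares for SkMel28 with the standard error as bars. Filled symbols passed an adjusted p under 0.05, and apart from LUM in MeWo every filled symbol lies to the right of 0.

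Summed over the 43 genes, the normalised counts were 1504 to 1528 in the MeWo controls and 3296 to 3641 with Dox. In SkMel28 the sum was 3123 to 3307 in the controls and 10122 to 10279 with Dox, most of it from FN1 and SPARC. Without those 2 genes the sums were 1262 to 1276 and 2809 to 3104 in MeWo, and 851 to 879 and 2361 to 2604 in SkMel28. The 18 collagens together went from 357 to 379 up to 806 to 839.6 in MeWo and from 175 to 225 up to 1109 to 1244 in SkMel28. In every one of these sums the Dox libraries lay above the controls of their line.

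Among the laminins, the same 3 of 8 chain genes rose in both lines, LAMA4, LAMB1 and LAMC1, whose products assemble into one trimer of vessel and muscle basement membranes. The median log2 change of the 8 was 0.08 in MeWo and 0.49 in SkMel28. LAMA4 (chr6:112107931-112254939), the α chain, gave 35.1, 24.1 and 38.2 in the MeWo controls and 136, 171 and 158 with Dox. In SkMel28 it gave 59.0, 60.6 and 61.7 and, with Dox, 151, 173 and 159.6. The uninduced lines differed, and the Dox libraries of both reached the same range of values. The rise was 4.76-fold in MeWo (log2 2.24, SE 0.15, adjusted p 2.44e-08) and 2.67-fold in SkMel28 (log2 1.40, SE 0.15, adjusted p 1.15e-05), and the log2 changes differed by 0.84, SE 0.22, adjusted p 0.0277. That difference was lost when MeWo control replicate 2, MeWo Dox replicate 2 or 3, SkMel28 control replicate 2 or 3, or SkMel28 Dox replicate 1 or 3 was left out (adjusted p 0.0517 to 0.0806).

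LAMB1 (chr7:107923799-108003213), the β chain, stood at 133, 124 and 139.9 in the MeWo controls and at 279, 231 and 243 with Dox. The SkMel28 values were 64.6, 50.8 and 60.2 without and 116, 130.3 and 128 with Dox. Both lines thus gave Dox libraries above all of their controls, at 1.90-fold (log2 0.92, SE 0.12, adjusted p 4.87e-05) and 2.14-fold (log2 1.09, SE 0.12, adjusted p 1.51e-05). LAMC1 (chr1:183023420-183145592), the γ chain shared by most laminins, gave 67.4, 86.6 and 88.7 in the MeWo controls and 166, 97.8 and 133 with Dox. It gave 161, 142 and 167 in the SkMel28 controls and 235, 236 and 227 with Dox. The rises were smaller than those of LAMA4, at 1.63-fold (log2 0.68, SE 0.16, adjusted p 0.00728) and 1.48-fold (log2 0.57, SE 0.16, adjusted p 0.03). The SkMel28 call of LAMC1 was lost without any single one of the 6 SkMel28 libraries (adjusted p 0.0633 to 0.108) and with scaling to the spike-ins.

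The other 5 laminin genes passed in neither line. LAMA1, LAMA5, LAMB2, LAMB3 and LAMC3 had log2 changes between −0.40 and 0.76, and their adjusted p ran from 0.115 to 0.946. LAMB2 and LAMB3 had all 3 SkMel28 Dox libraries above the controls without being called. LAMB2P1, a LAMB2 pseudogene whose reads may be shared with its parent gene, held few reads and was not called.

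Promoter sequence is shown for the members that rose in both lines, had a mean of at least 10 in every group and had a stretch before their first exon in the RefSeq promoter table (GRCh38.p14). These were LAMB1, LAMC1, HSPG2 and SPARC, and for LAMA4 the tabulated window began inside a GENCODE exon. Each run reads 5′ to 3′ on the gene's strand and ends where the RefSeq start or the first GENCODE exon is reached. Capitals mark CANNTG, the core that basic helix-loop-helix factors such as MITF bind.
LAMB1: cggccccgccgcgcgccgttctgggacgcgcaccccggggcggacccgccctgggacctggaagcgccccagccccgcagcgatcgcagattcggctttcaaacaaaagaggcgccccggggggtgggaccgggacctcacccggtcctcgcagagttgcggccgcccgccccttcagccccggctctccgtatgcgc
LAMC1: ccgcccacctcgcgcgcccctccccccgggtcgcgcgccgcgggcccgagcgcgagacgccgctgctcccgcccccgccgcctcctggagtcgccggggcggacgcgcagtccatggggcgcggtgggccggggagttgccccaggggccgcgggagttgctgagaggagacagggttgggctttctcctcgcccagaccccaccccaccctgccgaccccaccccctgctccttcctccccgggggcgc
HSPG2: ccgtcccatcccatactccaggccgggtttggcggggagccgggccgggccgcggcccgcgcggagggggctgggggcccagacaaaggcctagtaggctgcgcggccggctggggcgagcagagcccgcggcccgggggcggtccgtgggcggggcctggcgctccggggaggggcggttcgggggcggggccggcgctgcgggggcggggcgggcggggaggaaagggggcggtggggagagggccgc
SPARC: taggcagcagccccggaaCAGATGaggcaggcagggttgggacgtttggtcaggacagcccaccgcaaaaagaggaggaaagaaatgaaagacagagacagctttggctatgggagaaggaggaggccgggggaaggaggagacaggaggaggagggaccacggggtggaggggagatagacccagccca
The runs cover chr7:108003214-108003411 (minus strand), chr1:183023170-183023419 (plus), chr1:21937311-21937560 (minus) and chr5:151686976-151687165 (minus). SPARC held 1 CANNTG and the others 0. In the 250 bases before the start, 61.8% of 35116 tabulated windows and 15 of the 37 member windows (13 of 31 members) held at least 1. The MITF-type cores CACGTG and CATGTG, searched on both strands from 250 bases before to 50 after the start, were in 0 of the 37 windows of the 31 members and in 7.26% and 11.1% of all windows. TCACGTGA and TCATGTGA, which contain these cores, were likewise in 0 of 31, and in 0.980% and 1.00% of all windows. The shares were not matched for base composition. The LAMB1, LAMC1, HSPG2 and SPARC runs were 75.3%, 79.6%, 82.8% and 60.0% G or C, beside a median of 58.0% over all windows. The letters in these windows say nothing of more distant sites.

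The basement membrane linkers AGRN, HSPG2 and NID1 all rose in MeWo, and HSPG2 alone of them in SkMel28. HSPG2 (chr1:21822244-21937310) encodes perlecan, a heparan sulfate proteoglycan that binds laminin, nidogen and collagen IV. Its values were 87.0, 66.4 and 80.0 in the MeWo controls, 150.02, 248 and 216 with Dox, 139, 126 and 119 in the SkMel28 controls and 319.7, 351 and 491 with Dox. The Dox libraries lay above the controls in both lines, by 2.63-fold (log2 1.36, SE 0.18, adjusted p 4.11e-05) and 3.02-fold (log2 1.57, SE 0.18, adjusted p 1.73e-05).

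AGRN (chr1:1020120-1056118), agrin, another heparan sulfate proteoglycan, gave 87.5, 72.7 and 80.0 in the MeWo controls and 116, 185 and 208 with Dox. In SkMel28 it gave 61.8, 94.2 and 62.5 without and 68.0, 67.5 and 86.4 with Dox, so that the groups overlapped in that line. The MeWo rise was 2.12-fold (log2 1.03, SE 0.20, adjusted p 0.00155), lost with MeWo fitted alone (adjusted p 0.0514), and the SkMel28 change was 0.04 (adjusted p 0.936). The difference between the lines was 0.99, SE 0.28, adjusted p 0.0416. It was lost without any single MeWo control, MeWo Dox replicate 2 or 3, SkMel28 control replicate 2 or 3, or SkMel28 Dox replicate 1 or 2 (adjusted p 0.0571 to 0.112). NID1 (chr1:235975830-236065109), nidogen, the rod that joins laminin to collagen IV, gave 6.33, 7.38 and 6.80 in the MeWo controls and 35.7, 21.2 and 24.0 with Dox, a 3.95-fold rise (log2 1.80, SE 0.26, adjusted p 9.90e-05). SkMel28 held at most 1 read of NID1 in any of its 6 libraries, which gives no fold. A count of 0 reads allows a value of up to 1.15 in these controls.

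Of the 5 network and basement membrane collagens, COL15A1 and COL18A1 rose in both lines while COL4A1, COL4A2 and COL4A5 passed in neither. COL18A1 (chr21:45405165-45513720), whose C-terminal fragment is the angiogenesis inhibitor endostatin, gave 32.5, 32.2 and 27.9 in the MeWo controls and 88.4, 134 and 130.1 with Dox. In SkMel28 it was lower throughout, at 3.34, 2.54 and 3.83 without and 8.02, 7.69 and 9.37 with Dox. It rose 3.81-fold in MeWo (log2 1.87, SE 0.20, adjusted p 4.24e-06) and 2.58-fold in SkMel28 (log2 1.15, SE 0.20, adjusted p 0.000933). Its 3′ end lies inside SLC19A1 on the opposite strand, which also rose in MeWo (7.09 to 16.9, log2 1.11), and the strand used in counting is not stated. COL15A1, its relative in basement membrane zones, held 0.576 to 1.17 in the MeWo controls (3 reads or fewer) and 5.43, 2.27 and 3.73 with Dox, at least 3.27-fold higher (log2 1.38, SE 0.30, adjusted p 0.00391). In SkMel28 it went from 0.557, 1.27 and 1.15 to 7.72, 8.02 and 11.8, a 9.25-fold rise (log2 2.35, SE 0.30, adjusted p 4.73e-05). Without SkMel28 control replicate 2 the remaining controls held 3 reads or fewer, and the rise was at least 7.98-fold.

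The collagen IV chains COL4A1 and COL4A2, which share a head-to-head promoter on chromosome 13 and make the main basement membrane network, were measured in MeWo and near or at the floor in SkMel28. COL4A1 gave 20.7, 13.99 and 19.1 in the MeWo controls and 30.0, 26.9 and 24.7 with Dox, which did not overlap, and its log2 change of 0.59 did not pass (adjusted p 0.115). COL4A2 gave 32.0, 47.0 and 35.6 without and 74.7, 38.3 and 45.4 with Dox, with overlapping groups (log2 0.42, SE 0.30, adjusted p 0.381). COL4A5 stayed at 2.65 to 5.11 in MeWo.

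**Figure D2:**
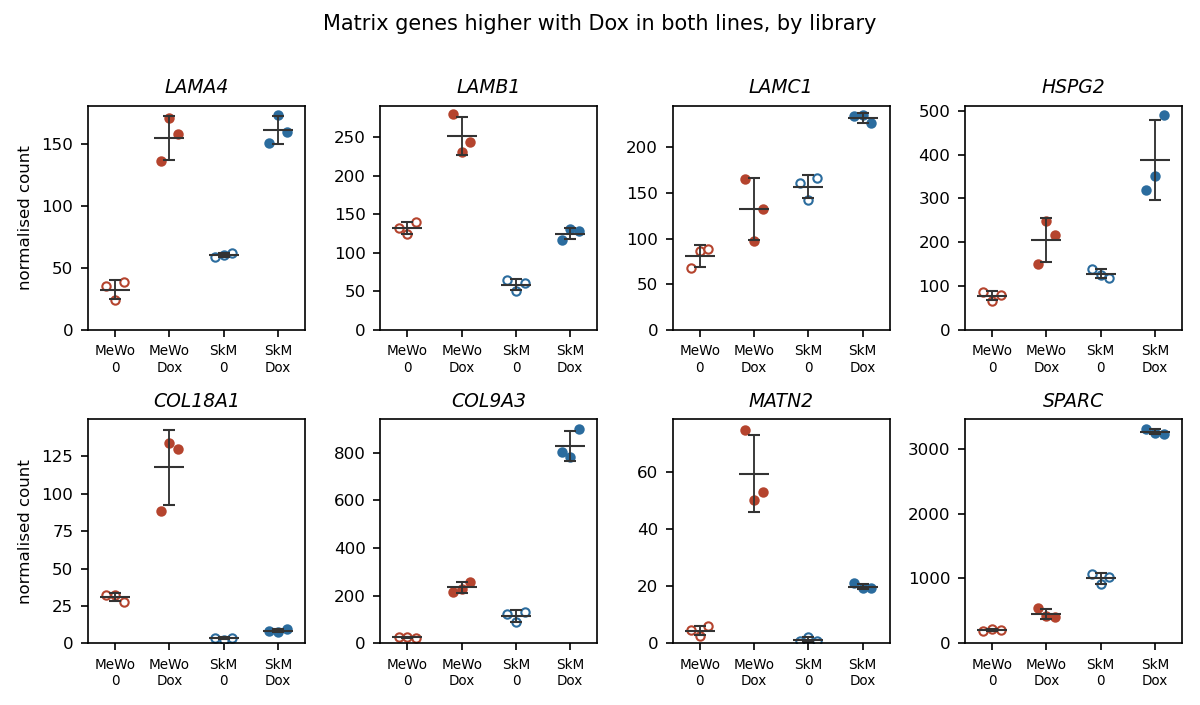
Normalised counts (y axis, linear, from 0) of 8 genes called higher in both lines, by library, for MeWo and SkMel28 (SkM) without Dox (0, open) and with Dox (filled), with the mean and SD of 3 libraries. In each panel the Dox points of a line lie above its control points, and SPARC reaches 3301 in a SkMel28 Dox library.

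Each of the 5 fibrillar collagen genes rose in at least 1 line, 3 of 5 in each, and COL5A3 in both. COL5A3 (chr19:9959561-10010504), a minor chain of collagen V, gave 1.15, 1.94 and 1.30 in the MeWo controls and 10.9, 20.5 and 19.98 with Dox, 11.7-fold higher (log2 2.84, SE 0.31, adjusted p 5.47e-06). In SkMel28 it gave 1.11, 1.59 and 0.383 without and 3.27, 3.68 and 2.12 with Dox (log2 1.01, SE 0.31, adjusted p 0.0452). This SkMel28 call rested on few reads and was lost without any single MeWo control, SkMel28 control replicate 1 or 3, or SkMel28 Dox replicate 1 or 2 (adjusted p 0.0547 to 0.21), and in edgeR and DESeq2. COL5A2 (chr2:189031898-189225312), another collagen V chain, gave 22.2, 37.7 and 28.5 in the MeWo controls and 75.6, 45.5 and 56.2 with Dox. It rose 2.01-fold (log2 0.98, SE 0.27, adjusted p 0.0208), a call lost without MeWo control replicate 1 or 3, or MeWo Dox replicate 1 or 3 (adjusted p 0.0537 to 0.0981). In SkMel28 COL5A2 held 0.302 to 1.19 in all 6 libraries.

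The collagen XI chains COL11A1 and COL11A2, best known from cartilage, were each called in 1 line and held few reads in the other. COL11A1 (chr1:102876467-103108872) gave 26.2, 40.3 and 36.8 in the SkMel28 controls and 169, 178 and 172 with Dox, a 5.03-fold rise (log2 2.32, SE 0.32, adjusted p 0.000126). The limma call was lost with a pseudocount of 0.1 (log2 2.35, adjusted p 0.122) and kept under every other alternative. In that fit all 4 groups, MeWo among them, share 1 estimate of the spread. MeWo held 0.288, 0 and 1.30 without and 0, 1.14 and 0 with Dox, at most 4 reads per library. COL11A2 was at 3 reads in each MeWo control and at 7.98, 7.58 and 6.10 with Dox, at least 6.19-fold higher (log2 2.03, SE 0.31, adjusted p 0.000165), while SkMel28 gave 0, 0.317 and 0.766 without and 0.297, 0.334 and 1.51 with Dox. COL27A1 (chr9:114155537-114312511), a fibrillar collagen of cartilage, gave 150.3, 155 and 154 in the MeWo controls and 193, 208 and 190.3 with Dox. The MeWo groups did not overlap, but the log2 change of 0.36 did not pass (adjusted p 0.379). COL27A1 did pass in MeWo with DESeq2 (log2 0.38, adjusted p 0.0455) and in limma with MeWo fitted alone (adjusted p 0.0481). In SkMel28 it stood at 3.06, 1.59 and 6.90 and at 14.5, 17.7 and 16.3 with Dox, 4.21-fold higher (log2 1.97, SE 0.26, adjusted p 7.58e-05) and 6.97-fold without SkMel28 control replicate 3.

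Of the 4 FACIT collagens, which decorate fibrils rather than form them, 2 rose in MeWo and 3 in SkMel28. COL9A3 (chr20:62816244-62841159), a chain of collagen IX, gave 27.4, 24.9 and 24.3 in the MeWo controls and 214, 229 and 259 with Dox. The SkMel28 libraries gave 124, 87.6 and 133 without and 803, 781 and 898 with Dox. The lowest Dox library of each line was far above its highest control, at 9.19-fold (log2 3.15, SE 0.14, adjusted p 5.77e-10) and 7.21-fold (log2 2.86, SE 0.14, adjusted p 1.83e-09), and the changes did not pass as different (adjusted p 0.387). TCFL5, which covers the 3′ end of COL9A3 on the other strand, changed by −0.63 in MeWo and 0.29 in SkMel28.

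COL16A1 (chr1:31652263-31704319) rose in MeWo, from 3.46, 7.38 and 4.21 to 26.8, 40.9 and 46.1, or 7.56-fold (log2 2.71, SE 0.29, adjusted p 5.03e-06). In SkMel28 it gave 4.18, 3.49 and 1.92 without and 4.16, 3.34 and 3.93 with Dox, with overlapping groups (log2 0.23, SE 0.29, adjusted p 0.701). COL22A1, a collagen of tissue junctions, was called in SkMel28 alone, and it reached the minimum for listing only through its Dox libraries there. It gave 0.557, 0.952 and 3.07 in the SkMel28 controls and 27.6, 28.7 and 33.5 with Dox, 19.7-fold higher (log2 3.74, SE 0.33, adjusted p 9.67e-07), and no more than 2 reads in any MeWo library. Without SkMel28 control replicate 3 both remaining controls held 3 reads or fewer, and the rise was at least 26.1-fold. COL19A1, expressed at low levels, gave 5.01, 2.22 and 3.45 without and 7.12, 9.36 and 9.67 with Dox in SkMel28 (log2 1.13, SE 0.30, adjusted p 0.0203). The COL19A1 call was lost without SkMel28 control replicate 2 or 3, or SkMel28 Dox replicate 2 or 3 (adjusted p 0.061 to 0.0968).

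Collagen VI chains, which form beaded filaments next to cells, were called higher in SkMel28 alone, and COL7A1, the anchoring fibril collagen of the skin, in MeWo alone. COL6A1 (chr21:45981770-46005050) gave 2.78, 6.03 and 6.90 in the SkMel28 controls and 20.2, 28.1 and 26.0 with Dox, 4.73-fold higher (log2 2.102, SE 0.29, adjusted p 0.000101). In MeWo it gave 51.3, 49.7 and 50.5 without and 72.8, 31.8 and 35.9 with Dox, and the highest of these came from MeWo Dox replicate 1 (log2 −0.20, SE 0.29, adjusted p 0.681). COL6A2 (chr21:46098112-46132848) stood at 22.3, 15.5 and 16.5 in the SkMel28 controls and at 38.6, 31.8 and 47.4 with Dox, 2.17-fold higher (log2 1.07, SE 0.26, adjusted p 0.0114). That call was lost without SkMel28 control replicate 2 or 3, or SkMel28 Dox replicate 3 (adjusted p 0.0516 to 0.0611). MeWo, which had COL6A1 in every library, held at most 1 read of COL6A2 in each.

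COL7A1 (chr3:48564073-48595329) gave 6.62, 1.55 and 2.91 in the MeWo controls and 6.70, 12.5 and 11.2 with Dox. The highest control nearly met the lowest Dox library, and the 2.74-fold rise (log2 1.35, SE 0.37, adjusted p 0.0183) was lost without MeWo control replicate 2 or 3, or MeWo Dox replicate 2 or 3 (adjusted p 0.0661 to 0.113), and was 4.53-fold without MeWo control replicate 1. SkMel28 gave 6.40, 10.5 and 8.43 without and 3.86, 7.69 and 8.76 with Dox, which overlapped (adjusted p 0.672), and the difference between the lines did not pass for COL7A1 (1.67, SE 0.52, adjusted p 0.0601) or COL6A2 (−1.06, SE 0.36, adjusted p 0.0832). The COL7A1 difference passed with scaling to the spike-ins (adjusted p 0.00515), and without MeWo control replicate 1 (adjusted p 0.0212) or MeWo Dox replicate 1 (adjusted p 0.0112). That of COL6A2 passed with a pseudocount of 5 (adjusted p 0.0174) and without MeWo Dox replicate 1 (adjusted p 0.042). COL25A1, the only listed transmembrane collagen, gave 0.777 to 3.73 in MeWo and 0 reads in SkMel28, and was not called by Dox.

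Of the 6 matricellular and adhesive glycoproteins, 5 rose in each line and 4 (MATN2, SPARC, THBS2 and TNC) in both. Their median log2 change was 1.30 in MeWo and 1.58 in SkMel28. MATN2, matrilin-2, an adaptor of filamentous networks, gave 4.61, 2.72 and 6.15 in the MeWo controls and 75.01, 50.4 and 53.2 with Dox. In SkMel28 it gave 0.835, 2.22 and 0.766 without and 21.1, 19.4 and 19.3 with Dox. This was 13.2-fold (log2 3.49, SE 0.28, adjusted p 1.70e-07) and 15.6-fold (log2 3.26, SE 0.28, adjusted p 9.01e-07), with every Dox library above every control of its line. Without SkMel28 control replicate 2 the SkMel28 controls held 3 reads or fewer, which gives at least 17.3-fold. The ribosomal protein gene RPL30 covers its 3′ end on the other strand at means of 1128 to 1777, with changes of −0.34 in MeWo and 0.34 in SkMel28 that did not pass.

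SPARC (chr5:151661096-151686975), a collagen-binding glycoprotein also called osteonectin, gave 196, 223 and 199 in the MeWo controls and 546, 417 and 411 with Dox. SkMel28 had 1076, 907 and 1027 without and 3301, 3248 and 3229 with Dox. The SkMel28 controls already exceeded the MeWo Dox libraries, and the gene rose in both lines, 2.22-fold (log2 1.14, SE 0.12, adjusted p 3.44e-06) and 3.25-fold (log2 1.70, SE 0.12, adjusted p 1.17e-07). TNC (chr9:115019575-115118207), tenascin-C, which weakens adhesion to fibronectin, gave 4.32, 5.44 and 8.42 without and 16.9, 11.0 and 30.8 with Dox in MeWo. In SkMel28 it gave 36.5, 71.1 and 36.4 without and 178, 150.1 and 76.5 with Dox. The replicates were widely spread, but no Dox library fell among the controls of its line (3.23-fold, log2 1.47, SE 0.36, adjusted p 0.00863, and 2.81-fold, log2 1.46, SE 0.36, adjusted p 0.0126). TNC lost its MeWo call without MeWo Dox replicate 3 (log2 1.10, adjusted p 0.058) and its SkMel28 call without SkMel28 control replicate 1 or 3, or SkMel28 Dox replicate 1 or 2 (adjusted p 0.0644 to 0.0831).

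THBS2 (chr6:169215780-169254050), thrombospondin-2, an inhibitor of vessel growth, gave 252, 245 and 245 in the MeWo controls and 1079, 757 and 989.7 with Dox, 3.81-fold higher (log2 1.91, SE 0.17, adjusted p 7.52e-07). SkMel28 held 1.67, 1.59 and 0.766 and, with Dox, 2.67, 2.67 and 2.72. This rise of a few reads was called (log2 0.68, SE 0.17, adjusted p 0.0176) and was lost without SkMel28 control replicate 3 or SkMel28 Dox replicate 1 or 2 (adjusted p 0.051 to 0.0951), and in edgeR and DESeq2. THBS1, thrombospondin-1, gave 0.864, 1.94 and 2.59 without and 6.38, 3.41 and 3.73 with Dox in MeWo (log2 0.99, SE 0.32, adjusted p 0.0408). It was lost without MeWo control replicate 1 or 2, MeWo Dox replicate 1 or 3, or SkMel28 control replicate 1 or 3 (adjusted p 0.0504 to 0.173), and SkMel28 held at most 2 reads of it. FN1 (chr2:215360440-215436073), fibronectin, the main adhesive glycoprotein bound by integrins, went from 1191, 1549 and 1272 to 4459.7, 4567 and 4447 in SkMel28. That was 3.36-fold (log2 1.76, SE 0.20, adjusted p 1.90e-05). MeWo gave 43.2, 43.5 and 50.8 without and 30.0, 70.9 and 42.3 with Dox, with the Dox values on both sides of the controls (log2 −0.03, SE 0.20, adjusted p 0.958).

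Of the 3 matrix proteoglycans 1 fell in MeWo and 1 rose in SkMel28, and of the 4 elastic fibre and fibulin genes only FBLN1 was called, higher in SkMel28. LUM (chr12:91102629-91111494), lumican, a keratan sulfate proteoglycan that spaces collagen fibrils, was the only matrix gene called lower. It gave 40.9, 46.6 and 45.7 in the MeWo controls and 16.3, 8.34 and 13.2 with Dox, 3.52-fold lower (log2 −1.78, SE 0.23, adjusted p 3.06e-05). In SkMel28 all Dox libraries also lay under the controls, at 8.91, 7.02 and 6.04 against 10.9, 13.3 and 11.1, and the log2 change of −0.63 did not pass (adjusted p 0.0924). It passed without MeWo Dox replicate 1 (adjusted p 0.0432) or MeWo Dox replicate 2 (adjusted p 0.0385), with the value itself unchanged. VCAN, versican, a large chondroitin sulfate proteoglycan, gave 1.95, 4.13 and 3.45 in the SkMel28 controls and 10.1, 7.69 and 10.6 with Dox, 2.98-fold higher (log2 1.35, SE 0.27, adjusted p 0.00283), and 0 reads in all 6 MeWo libraries. The VCAN rise was lost with a pseudocount of 0.1 (adjusted p 0.0708). FBLN1 (chr22:45502238-45601135), fibulin-1, went from 4.73, 5.39 and 3.83 to 13.1, 14.4 and 9.67 in SkMel28 (2.66-fold, log2 1.23, SE 0.38, adjusted p 0.0459) and gave 3.46, 3.89 and 0.972 without and 2.87, 0.379 and 2.03 with Dox in MeWo (log2 −0.47, SE 0.38, adjusted p 0.437). The FBLN1 difference between the lines did not pass (adjusted p 0.0617), and the SkMel28 call was lost without MeWo control replicate 1 or 2 or any single SkMel28 library (adjusted p 0.0513 to 0.161). That difference passed with a pseudocount of 5 (adjusted p 0.0164), and without MeWo control replicate 3 (adjusted p 0.0282) or MeWo Dox replicate 1 (adjusted p 0.00884). DCN, FBN1, EFEMP1 and EFEMP2 stayed under a normalised count of 7.6 in every library and passed in neither line. EFEMP2, picked out after its values were seen, came nearest to a call in MeWo, at 0.288, 1.94 and 1.30 without and 2.23, 7.58 and 2.71 with Dox (log2 1.19, SE 0.41, adjusted p 0.0557).

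The changes in the lines differed for 14 of the 43 genes, 7 with a positive and 7 with a negative difference, beside 7.09% of all genes called in either direction. The difference is the MeWo log2 change minus the SkMel28 change. In MeWo the larger rises were those of AGRN, COL5A3, COL11A2, COL16A1, LAMA4, NID1 and THBS2, from 0.84 for LAMA4 to 2.48 for COL16A1 (SE 0.42, adjusted p 0.00173). The negative differences were those of COL6A1, COL11A1, COL22A1, COL27A1, FN1 and VCAN, which rose in SkMel28, and LUM, with the larger fall in MeWo. COL22A1 had the widest gap (−3.36, SE 0.46, adjusted p 0.00034), followed by COL11A1 (−2.48, SE 0.46, adjusted p 0.0036) and COL6A1 (−2.31, SE 0.41, adjusted p 0.00256), while FN1 differed by −1.78, SE 0.29, adjusted p 0.00144. Only COL16A1, COL6A1 and FN1 kept this call under every alternative that gave an adjusted p. For COL22A1, NID1 and VCAN 1 line held 2 reads or fewer in every library, and for COL11A1 MeWo held at most 4. On the recovered reads edgeR called 6 of the 14 differences. It lost those of these 4 genes (adjusted p 0.144 to 1), and also COL11A2 (0.429), THBS2 (0.223), COL5A3 (0.0993) and LUM (0.0517). The THBS2 difference (1.23, SE 0.25, adjusted p 0.0068) was lost in DESeq2 (adjusted p 0.239) and with a pseudocount of 0.1 (adjusted p 0.116) as well. The LUM, VCAN and COL11A2 differences (−1.15, SE 0.32, adjusted p 0.0387; −1.35, SE 0.38, adjusted p 0.0397; and 1.73, SE 0.43, adjusted p 0.0232) were each lost without several single libraries. For LUM these were all but MeWo Dox replicate 1 and SkMel28 Dox replicate 3 (adjusted p 0.0552 to 0.103). For VCAN they were all but MeWo Dox replicate 1 and SkMel28 control replicate 2 (adjusted p 0.0514 to 0.0927). For COL11A2 they were MeWo control replicate 1 or 3, SkMel28 control replicate 3, and SkMel28 Dox replicate 1 or 2 (adjusted p 0.0524 to 0.0709). COL5A3 (1.83, SE 0.44, adjusted p 0.0187) was lost without MeWo control replicate 3, MeWo Dox replicate 3 or SkMel28 control replicate 2 (adjusted p 0.0503 to 0.0572).

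**Figure D3:**
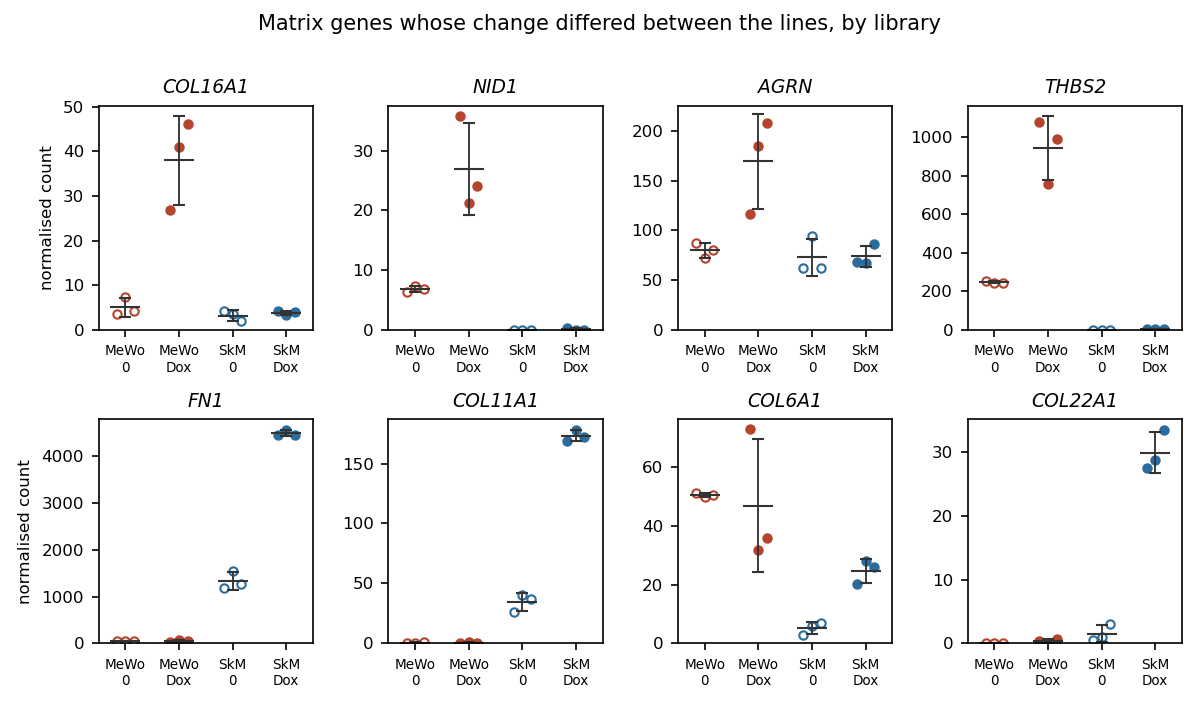
Normalised counts (y axis, linear, from 0) by library of 8 genes whose change with Dox differed between MeWo and SkMel28 (SkM), without Dox (0, open) and with Dox (filled), with the mean and SD of 3 libraries. The change is larger in MeWo for COL16A1, NID1, AGRN and THBS2 (top row) and in SkMel28 for FN1, COL11A1, COL6A1 and COL22A1 (bottom row). THBS2 was also called higher in SkMel28. NID1 in SkMel28 and COL11A1 and COL22A1 in MeWo held too few reads to show a change.

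**Figure D4:**
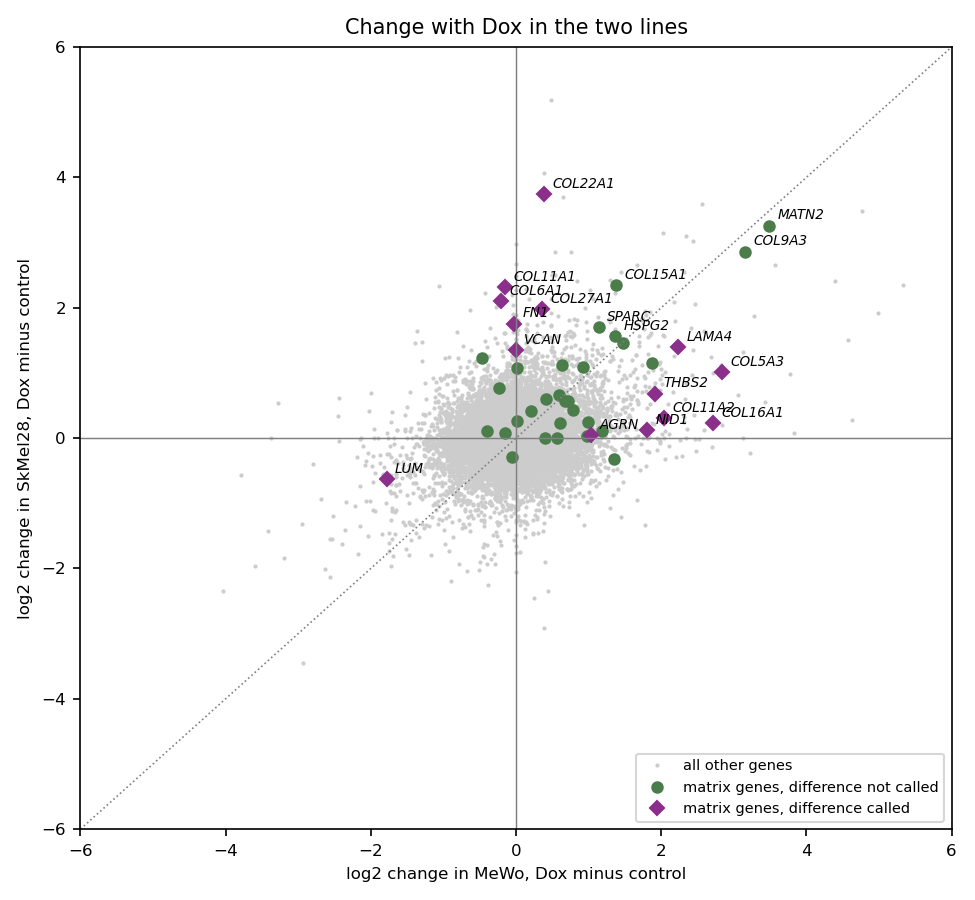
Log2 change with Dox in MeWo (x axis) and SkMel28 (y axis) for all 12616 genes (grey) and the 43 matrix genes, as diamonds where the changes differed between the lines and as circles where that was not called. The dotted line marks equal change, near which MATN2, COL9A3 and HSPG2 lie.

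Without Dox the lines already differed in their matrix transcripts. Between the controls 33 of the 43 genes differed, 15 higher in SkMel28 and 18 higher in MeWo, where 51.4% of all genes differed in either direction. FN1 (log2 4.83, 29.2-fold), COL11A1 (4.60), COL6A2 (3.98, at least 15.5-fold), TNC (2.76), SPARC (2.27) and COL9A3 (2.11) were higher in SkMel28. Higher in MeWo were THBS2 (−6.75, 184-fold), COL27A1 (−5.14), COL6A1 (−3.11), COL18A1 (−2.92) and the collagen V chain COL5A2 (−4.09, at least 25.6-fold). Of genes not called with Dox in either line, the collagen IV chains COL4A2 (−4.40, adjusted p 2.08e-09) and COL4A1 (−4.09, at least 15.6-fold) and the laminin α chains LAMA5 (−1.29, SE 0.24, adjusted p 0.000261) and LAMA1 (−1.10, SE 0.15, adjusted p 1.04e-05) were higher in MeWo. LAMA1 gave 64.8, 82.0 and 83.6 in the MeWo controls and 41.2, 29.2 and 36.0 in the SkMel28 controls, and LAMA5 gave 35.7, 26.4 and 34.0 and 14.8, 7.30 and 17.2. Within a trimer the lines differed in opposite directions for LAMB1, higher in MeWo, and LAMA4 and LAMC1, higher in SkMel28. COL7A1 (1.13, adjusted p 0.0166) overlapped between the lines and was lost without MeWo control replicate 2 or 3 or SkMel28 control replicate 2 (adjusted p 0.0512 to 0.108).

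**Figure D5:**
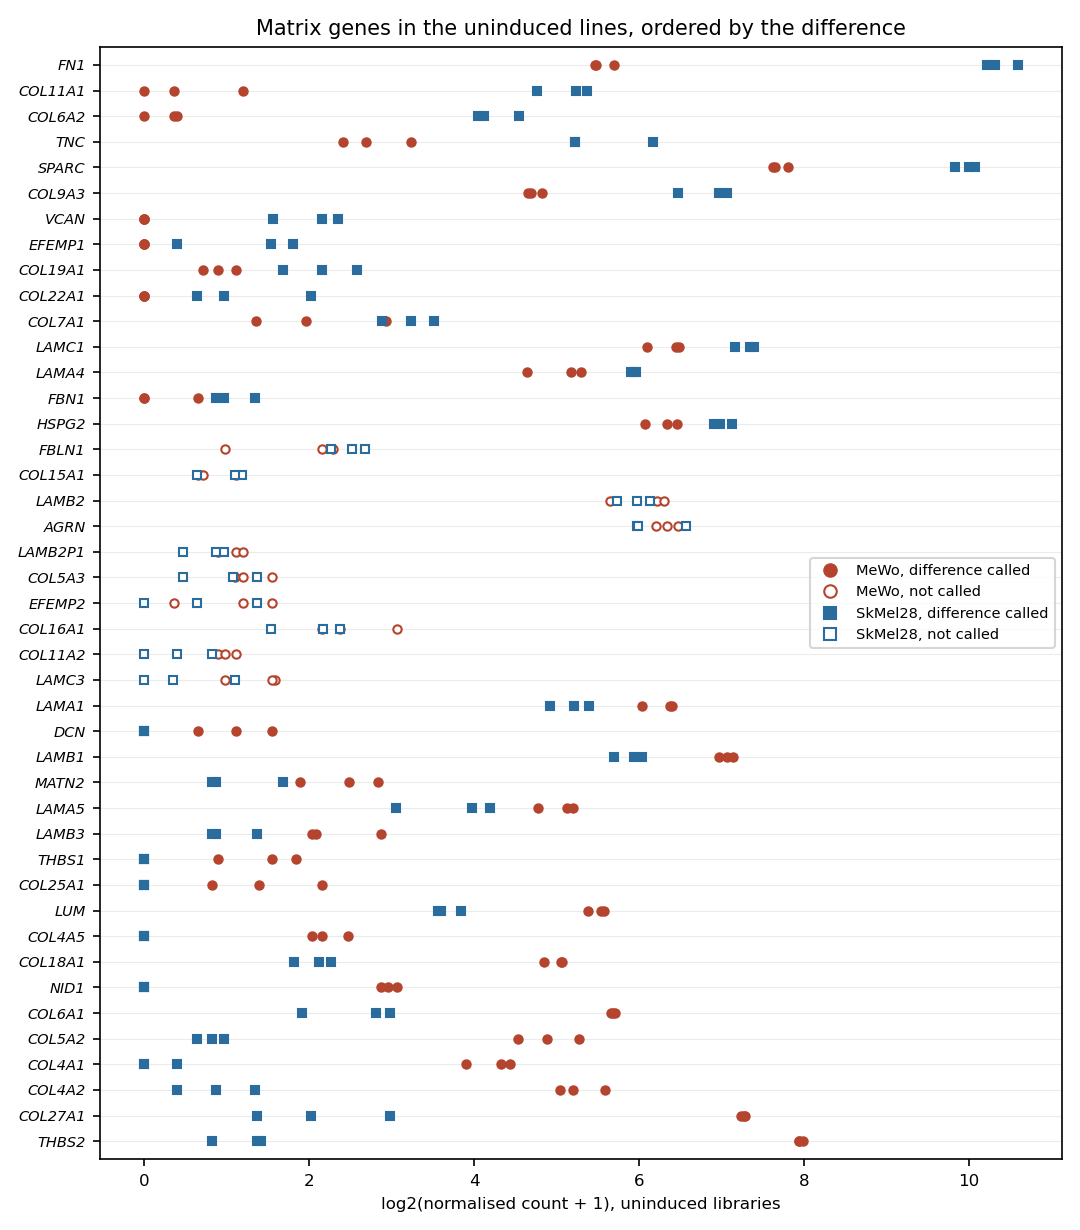
Levels of the 43 matrix genes as log2 of (normalised count + 1) in the 3 uninduced MeWo (circles) and 3 uninduced SkMel28 (squares) libraries, ordered by the difference between the lines. Filled symbols mark the 33 genes called, from FN1 at the top, higher in SkMel28, to THBS2 at the bottom, higher in MeWo.

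Genes that make, process or bind this matrix were counted from lists without members of the 43. Of 23 listed genes of collagen modification, folding and export, 9 rose and 2 fell in MeWo and 1 rose in SkMel28 (39.1% and 8.70% in MeWo, 4.35% and 0% in SkMel28, medians 0.42 and 0.15). Over all genes 8.58% rose and 8.12% fell in MeWo and 5.88% and 5.04% in SkMel28, so the falls in MeWo and the single rise in SkMel28 were near or under those shares. SERPINH1, the collagen chaperone HSP47, rose in both lines, from 97.4 ± 12.6 to 400.1 ± 122 in MeWo (SD, n = 3, log2 1.99) and from 86.2 ± 15.0 to 193 ± 16.1 in SkMel28 (log2 1.17). FKBP10 (1.53), P3H4 (1.45) and P4HA2 (1.24), which fold collagen chains or take part in hydroxylating them, rose in MeWo. Of 10 genes of extracellular processing and crosslinking, 3 rose and 2 fell in MeWo and 2 rose in SkMel28 (median log2 changes −0.01 and 0.29). LOXL3, a lysyl oxidase that crosslinks collagen, rose in both lines (2.35 and 3.11), and PXDN (2.004), which crosslinks collagen IV, and BMP1 (1.80), which cleaves procollagen, rose in MeWo, while ADAMTS14 fell there (−1.23). Of 18 collagen and laminin receptor genes, 7 rose in MeWo, and 8 rose and 1 fell in SkMel28 (38.9% and 0% in MeWo, 44.4% and 5.56% in SkMel28, medians 0.67 and 0.65). The dystroglycan gene DAG1 rose in both lines (1.82 and 1.30), as did the collagen endocytic receptor MRC2 (1.65 and 1.28). The collagen-binding integrin genes ITGA2 (2.14) and ITGA1 (1.69) rose in SkMel28.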

How the data were processed

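RNA of both lines was sequenced as QuantSeq 3′ tags, with ERCC spike-in transcripts. Per the labels the authors used FastQC 0.11.7, cutadapt 2.8, STAR 2.5.1b, edgeR and build hg38. The counting tool, annotation, strand and treatment of multi-mapping reads are not given in the sources used here. The authors deposited a signal table, reads divided by the effective library size, of 12683 features, of which 67 spike-ins (5.69% to 8.55% of reads) were set aside. Every value was a whole multiple of 1 read within 0.001 (100%), so whole reads were recovered. Because the deposited unit was normalised, the main test was limma (3.58.1, R 4.3.3) on log2(value + 1), with 1 fit of 4 group means over 12 libraries, a mean-variance trend and Benjamini-Hochberg adjustment over 12616 genes. A log2 change is therefore smaller than the log2 ratio of means for low genes, and printed folds are ratios of means. A fold was bounded by 3 reads where 1 group had no library above 3 reads. Intervals and floors cover counting error only. Members, lists and motifs were chosen with earlier results of these data known. Members called with Dox or by the difference between lines, with a mean of at least 10 in 1 group, are given in every library. From the lists, up to 4 called genes with the largest change are named. Alternatives were edgeR (4.0.16) and DESeq2 (1.42.0) on the recovered reads, other scalings, pseudocounts of 0.1 and 5, a filter of at least 5 in 3 libraries, no trend, a replicate block, each line alone and leaving out each library. The fits were tested on simulated data. Promoter sequences came from RefSeq (GRCh38.p14), where 31 of the 43 members had a window. Of the members, 10 overlap another listed gene on the opposite strand, which for 7 covers the 3′ end that the tags come from.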

Additional observations from a re-analysis of the deposited data

Results flagged for a closer look

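For 14 matrix genes the change with Dox differed between the lines in a test of the difference itself, the MeWo log2 change minus the SkMel28 log2 change in limma. Of the basement membrane genes, AGRN differed by 0.99 (1.03 in MeWo and 0.04 in SkMel28), LAMA4 differed by 0.84 (2.24 in MeWo and 1.40 in SkMel28) and NID1 differed by 1.68 (1.80 in MeWo and 0.13 in SkMel28). Of the collagens with a positive difference, COL5A3 differed by 1.83 (2.84 in MeWo and 1.01 in SkMel28), COL11A2 differed by 1.73 (2.03 in MeWo and 0.30 in SkMel28) and COL16A1 differed by 2.48 (2.71 in MeWo and 0.23 in SkMel28). Of those with a negative one, COL6A1 differed by −2.31 (−0.20 in MeWo and 2.102 in SkMel28), COL11A1 differed by −2.48 (−0.16 in MeWo and 2.32 in SkMel28), COL22A1 differed by −3.36 (0.38 in MeWo and 3.74 in SkMel28) and COL27A1 differed by −1.61 (0.36 in MeWo and 1.97 in SkMel28). THBS2 differed by 1.23 (1.91 in MeWo and 0.68 in SkMel28), and FN1 differed by −1.78 (−0.03 in MeWo and 1.76 in SkMel28). Of the proteoglycans, VCAN differed by −1.35 (0.00 in MeWo and 1.35 in SkMel28) and LUM differed by −1.15 (−1.78 in MeWo and −0.63 in SkMel28). MeWo libraries held 0 reads of VCAN, at most 2 of COL22A1 and at most 4 of COL11A1, and SkMel28 libraries at most 1 of NID1. Those lines held too few reads of these genes to show a change. Of the 14, edgeR on the recovered reads called 6 and did not call COL5A3, COL11A1, COL11A2, COL22A1, LUM, NID1, THBS2 or VCAN, while COL6A1, COL16A1 and FN1 were called under every alternative that gave an adjusted p.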

How the results depend on the processing

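No named gene reversed its direction of a called change under any alternative. Of the values of named genes under an alternative, 2384 kept their side of the threshold (those called in neither count among them), 164 lost a call and 23 gained one, and 5 had no adjusted p in DESeq2. Kept under every alternative that gave an adjusted p were 13 of the 19 rises and the fall of LUM in MeWo, 12 of the 21 rises in SkMel28 and 3 of the 14 differences between the lines. Without 1 library in turn, rises numbered 15 to 20 in MeWo and 14 to 21 in SkMel28, and falls in SkMel28 0 to 1. The 1 fall was LUM, without MeWo Dox replicate 1 or 2. Between the lines, positive differences numbered 3 with edgeR, 3 with DESeq2, 2 with a pseudocount of 0.1 and 4 to 9 without 1 library, against 7. They were 4 without MeWo control replicate 3, MeWo Dox replicate 3, SkMel28 control replicate 2 or 3, or SkMel28 Dox replicate 1. Negative differences numbered 3 with edgeR, 3 with a pseudocount of 0.1 and 5 to 11 without 1 library, against 7, with 11 without MeWo Dox replicate 1. Over all genes 894 differences were called in the main test, 806 with edgeR, 983 with DESeq2 and 640 with a pseudocount of 0.1. Without MeWo Dox replicate 1 the differences over all genes rose to 3115, 1612 positive and 1503 negative, so the gain was not particular to the matrix genes. edgeR called 18 members higher and 1 lower in MeWo and 19 higher in SkMel28, and 2045 and 1422 of all genes. With each line fitted alone the MeWo calls of COL5A2, COL7A1, LAMC1, THBS1 and TNC were also lost, and a pseudocount of 0.1 ended those of COL5A2 and THBS1 in MeWo and of COL6A2, COL11A1, COL19A1, FBLN1 and VCAN in SkMel28. With a replicate block, 19 members rose and 1 fell in MeWo, 19 rose in SkMel28, and 5 positive and 5 negative differences remained in the count. Deviations of same-numbered libraries from their group means correlated at r of −0.30 to 0.05 in MeWo and −0.10 to 0.29 in SkMel28. Different-numbered libraries gave −0.27 to 0.34 and −0.35 to 0.31. With 3 libraries per group these values cannot tell whether equal numbers share a culture or day, which the labels do not state. The causes were not tested. At these depths a gene with 3 reads or fewer per library gives no fold between groups.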
